A study of Mus musculus with 6 samples.

Results

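The mitochondrial ribosome carries a set of proteins that are encoded in the nucleus, and 76 genes of this set were measured in hearts of mice infused with angiotensin II (Ang II). They were taken as every row of the expression table whose symbol began with Mrpl or Mrps followed by a number and at most 1 letter, which gave 76 of 22556 genes. All 76 had a mean of at least 1 RPKM (read counts divided by the length of the transcript and the mapped reads of the library) over the libraries, the filter for testing, so none was lost. By textbook assignment, 29 belonged to the large subunit and have bacterial counterparts, 20 belonged to the large subunit and are specific to mitochondria, 17 were small subunit proteins with bacterial relatives, and 9 were small subunit proteins specific to mitochondria. Mrps36 stood alone, because its product is now known as a part of the oxoglutarate dehydrogenase complex of the citric acid cycle. Mrps18a and Mrps30 are counted with the large subunit, where their products sit despite their names.

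The libraries came from whole hearts of wild-type mice in 3 groups of 2: control (0 days of infusion), 7 days and 28 days. Ang II, a peptide hormone that raises blood pressure and enlarges the heart, was delivered under the skin at 1000 ng per kg per minute from an implanted osmotic pump. The labels name no strain, age or sex, and do not say whether the controls carried a pump. They also do not say that the 2 libraries of a group came from separate mice, so p-values measure the spread between these libraries, which may be technical. Each change below is a log2 difference of RPKM plus 0.5. A gene passed where limma gave a Benjamini-Hochberg adjusted p under 0.05 over the 11096 genes tested.

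Mitochondria have their own ribosome, which resembles that of bacteria in its core and has gained many proteins of its own. It translates a small set of messages from the mitochondrial genome, all of them for subunits of the respiratory chain and the ATP synthase. Its proteins are made in the cytosol and imported, while its ribosomal RNAs are transcribed inside the organelle. The heart depends on respiration, and inherited defects in several of these genes cause cardiomyopathy. No gene symbol began with mt-, the usual mark of mitochondrially encoded genes, and other symbols for them were not searched. The messages that this ribosome translates are therefore not analysed here.

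Heart identity was checked first. All 9 cardiomyocyte markers were above 0 in every library, and their summed level ran from 45792 to 58213 RPKM. Sequencing depth relative to control replicate 1 ran from 0.893 to 1.17, and 15636 to 16036 genes were above 0. Markers of the atria stood apart in 1 library: they summed to 322 RPKM in control replicate 1 and to between 2042 and 3434 RPKM in the others. Cell types of a whole heart were measured together, so fewer cells of a type and less RNA per cell cannot be told apart.

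The 76 genes spanned a wide range of levels. RPKM is scaled by transcript length, so levels are set side by side between genes, with limits. In the annotation, 24 members overlap another gene and 4 have a pseudogene named after them. Their reads may be split, and the part of this in the ranking was not tested. Mrpl42, a large subunit protein specific to mitochondria, had the highest mean over the 6 libraries, 324 RPKM. Mrpl30 and Mrpl12 followed, each at 178 RPKM, then Mrpl33 at 171 RPKM, Mrps21 at 161 RPKM and Mrps23 at 106 RPKM. No other member reached 100 RPKM. At the low end were Mrpl17 at 4.41 RPKM, Mrpl19 at 5.17 RPKM and Mrps25 at 7.73 RPKM. The next were Mrpl35 at 10.3 RPKM and Mrpl22 at 11.2 RPKM. The highest mean was 73.5 times the lowest, although the complex is thought to hold most of its proteins in equal numbers. Mrpl12, which forms the flexible stalk that recruits translation factors, is an exception known to be present in several copies.

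The median mean level was 41.1 RPKM for large subunit proteins with bacterial counterparts and 30.9 RPKM for those specific to mitochondria. It was 32.9 RPKM for small subunit proteins with bacterial relatives and 24.2 RPKM for those specific to mitochondria. Over all 76 the median was 32.5 RPKM. Genes of the cytosolic ribosome had a median of 36.9 RPKM over 79 tested genes, and ran from 1.05 to 563 RPKM. Pseudogenes were looked up for the members only, so a like level of the 2 ribosomes cannot be read from these medians. Nuclear-encoded subunits of oxidative phosphorylation were far higher, with a median of 480 RPKM over 74 tested genes.

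Between libraries, levels of a gene differed little beside the spacing between genes. The ratio of a gene's highest library to its lowest was under 1.5 in 67 of 76 members (88.2%), against 53.2% of all tested genes. The median level was 32.5 RPKM in members and 6.54 RPKM in all tested genes, and the part of level was not tested. The median ratio was 1.29 in members and 1.47 in all tested genes. It was 1.28 in oxidative phosphorylation genes, 1.31 in mitochondrial translation factors and 1.42 in cytosolic ribosomal proteins, so a low ratio was not particular to the members. Among members, Mrps5, a small subunit protein, varied least, with a ratio of 1.12. Its values were 19.9 and 19.9 RPKM in control, 21.2 and 20.8 at 7 days, and 22.3 and 22.0 at 28 days. Mrps34, also of the small subunit, varied most, with a ratio of 2.30.

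**Figure D1:**
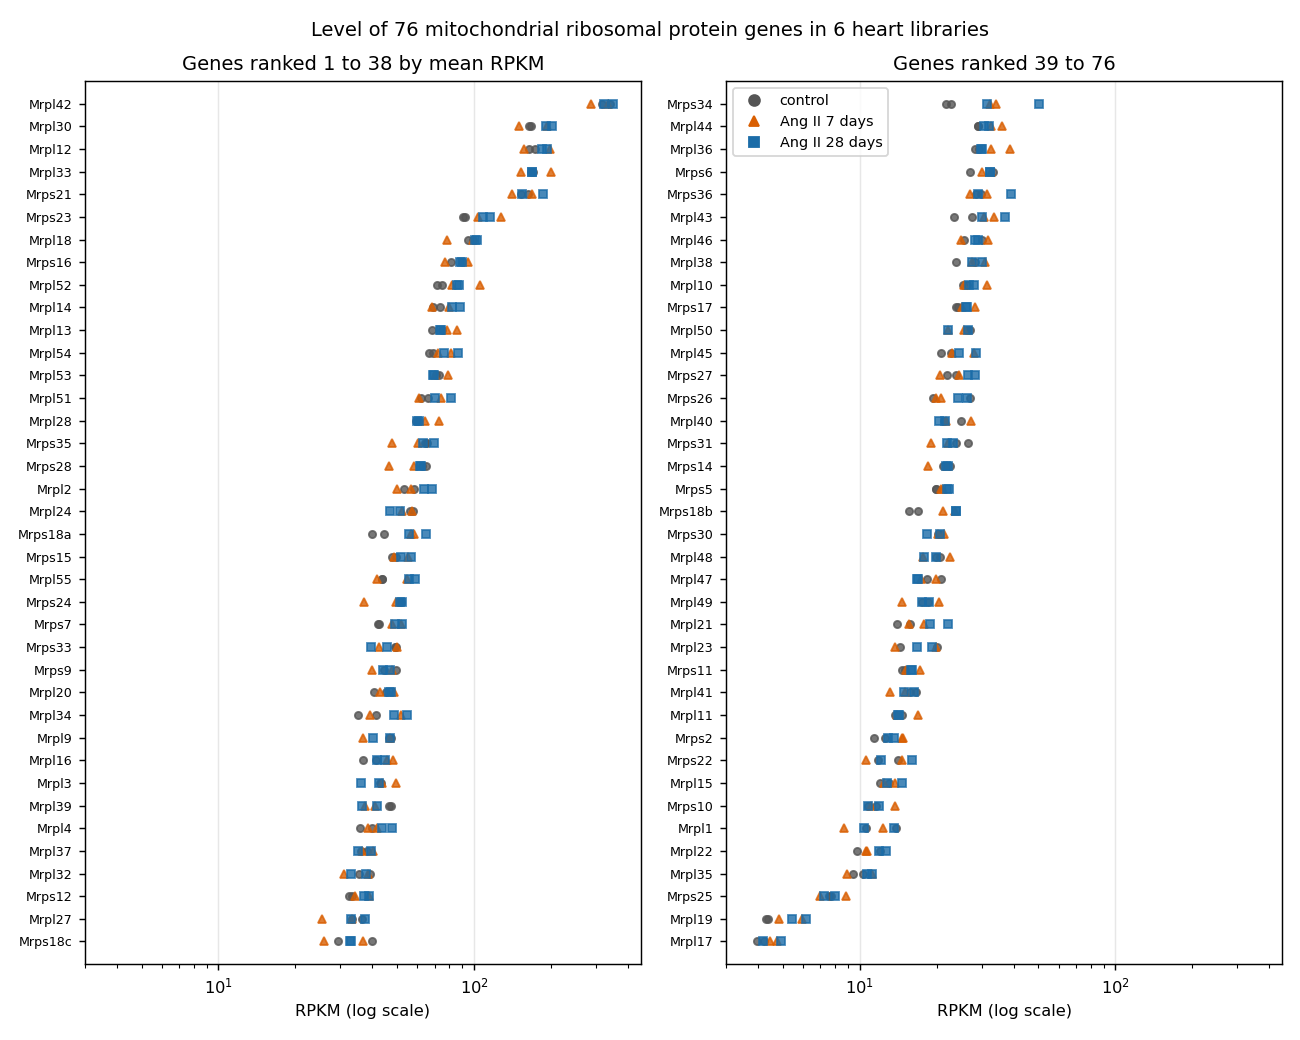
Level of each of the 76 genes in each of the 6 libraries, in RPKM on a log axis, with genes ordered by mean; circles are control, triangles 7 days and squares 28 days. The means fall from 324 RPKM for Mrpl42 to 4.41 RPKM for Mrpl17, while the libraries of 1 gene lie close together.

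After 7 days of Ang II, 2 of the 76 genes rose, Mrps18a and Mrps18b, and none fell. Of all tested genes, 13.2% were called higher and 2.27% lower, so the members' share was below the background. At an unadjusted p under 0.05, 11 members were higher and 2 lower, where the background was 26.5% and 5.66%. The median change of the members was 0.06, against 0.14 over all tested genes, and its sign turned when libraries were rescaled (-0.11 by the median ratio to all genes, -0.12 by quantile normalization). The changes ran from -0.30 to 0.56. In 47 members (61.8%) the change was above 0, against 69.0% of all tested genes. Markers of other cell types moved against control in the same libraries: 5 of 8 fibroblast, 7 of 8 macrophage, 3 of 6 endothelial and 5 of 5 tested cell cycle markers rose, with median changes of 1.64, 0.80, 0.58 and 2.15. The 5 cell cycle markers summed to 1.88 and 2.07 RPKM in control and 1.70 and 2.17 at 28 days. As a set they passed the filter through the 7 day libraries, so their count and median were partly set by it. Without the filter, all 7 listed cell cycle markers summed to 2.19 and 2.48 RPKM in control and 16.3 and 25.6 at 7 days. Fibroblast markers summed to 443 RPKM in each control and to 988 and 1037 RPKM at 7 days, and macrophage markers to 324 and 329 RPKM and then 547 and 604. Of 9 cardiomyocyte markers 1 rose and none fell, with a median of 0.01. After rescaling by the median ratio, 5 fibroblast, 2 macrophage and 2 endothelial markers rose, and 1 cardiomyocyte marker fell. The part of these markers in the members' changes was not tested.

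Mrps18a and Mrps18b belong to a family of 3 genes related to bacterial ribosomal protein S18. The product of Mrps18a sits in the large subunit and that of Mrps18b in the small subunit. Mrps18a read 39.9 and 44.3 RPKM in control, 58.3 and 56.7 at 7 days, and 55.7 and 64.8 at 28 days. Every infused library was above both controls. The change at 7 days was 0.45 (SE 0.11, limma adjusted p = 0.0402), from 42.1 ± 3.13 to 57.5 ± 1.13 RPKM (SD, n = 2).

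Mrps18b read 15.5 and 16.9 RPKM in control, 23.5 and 21.1 at 7 days, and 23.9 and 23.8 at 28 days. Again the controls were the lowest libraries. The change at 7 days was also 0.45 (SE 0.10, limma adjusted p = 0.0319), from 16.2 ± 0.966 to 22.3 ± 1.67 RPKM (SD, n = 2). The third relative, Mrps18c, belongs to the small subunit and did not follow. It read 29.5 and 39.7 RPKM in control, 36.9 and 25.8 at 7 days, and 32.8 and 32.9 at 28 days, so its groups overlapped. Its change at 7 days was -0.14 (SE 0.20, limma adjusted p = 0.656); whether it differed from those of its relatives was not tested.

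Both calls at 7 days were lost when any 1 control or 7 day library was left out, and both were lost when libraries were rescaled by the median ratio to all genes, which moved the changes to 0.28 and 0.28. That rescaling lowered the 7 day change of all genes by a like amount, from a median of 0.14 to -0.02, and took the share of calls that were higher from 85.3% to 61.2%. In the annotation of build GRCm38, Mrps18a overlaps Rsph9, a gene at 0.108 to 1.02 RPKM here, and Mrps18b overlaps Gm16279.

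**Figure D2:**
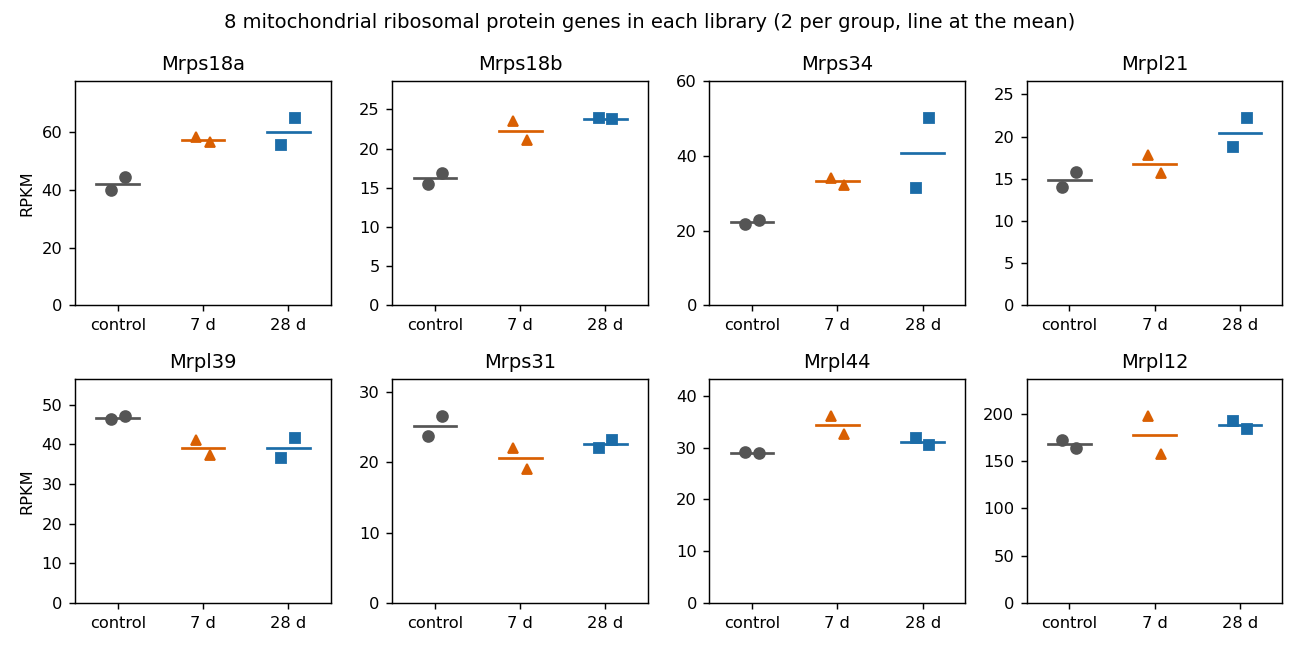
RPKM of 8 members in each library (points, 2 per group) with the group mean as a line, on axes that start at 0. Mrps18a, Mrps18b and Mrps34 lie above both controls in every infused library, Mrpl39 and Mrps31 lie below both controls in every infused library, and Mrpl12 overlaps at 7 days.

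Promoter sequences are shown for these 2 genes and, for contrast, for Mrpl39, the member with the lowest change at 28 days. Each runs from 250 bases before the annotated start to 30 bases after it, 5′ to 3′ on the gene's strand, from RefSeq on build GRCm38.p6. Mrps18a lies at chr17:46110754-46111033 (plus strand), Mrps18b at chr17:35916411-35916690 (minus strand) and Mrpl39 at chr16:84735215-84735494 (minus strand). Capitals mark matches to the core letters of 3 motifs: GCATGCGC for NRF1, CCGGAAG for ETS factors such as GABP, and AAGATGGCG for YY1, searched on both strands. The NRF1 letters partly overlap their own reverse complement.
Mrps18a: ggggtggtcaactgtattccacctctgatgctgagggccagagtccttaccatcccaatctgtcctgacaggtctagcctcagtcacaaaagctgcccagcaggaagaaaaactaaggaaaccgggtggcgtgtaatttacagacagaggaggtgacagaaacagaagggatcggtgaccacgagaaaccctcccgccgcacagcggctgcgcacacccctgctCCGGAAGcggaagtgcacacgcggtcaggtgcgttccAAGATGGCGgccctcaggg
Mrps18b: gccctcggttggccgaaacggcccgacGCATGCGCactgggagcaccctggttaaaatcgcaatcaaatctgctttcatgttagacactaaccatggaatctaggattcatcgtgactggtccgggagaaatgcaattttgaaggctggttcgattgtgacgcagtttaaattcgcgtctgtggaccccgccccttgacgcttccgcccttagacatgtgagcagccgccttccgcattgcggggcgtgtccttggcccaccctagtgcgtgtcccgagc
Mrpl39: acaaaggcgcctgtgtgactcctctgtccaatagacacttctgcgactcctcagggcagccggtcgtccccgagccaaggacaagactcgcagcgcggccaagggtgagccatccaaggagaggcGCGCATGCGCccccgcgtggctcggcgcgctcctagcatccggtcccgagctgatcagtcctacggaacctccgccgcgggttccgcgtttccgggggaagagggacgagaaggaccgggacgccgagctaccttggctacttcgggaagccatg
The Mrps18a window held 1 ETS match and 1 YY1 match. The Mrps18b window held 1 NRF1 match, far from the start. In Mrpl39 the capitals are 2 overlapping NRF1 matches, 1 on each strand.

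NRF1, GABP and YY1 are transcription factors known for their part in the nuclear control of mitochondrial genes. Of the 76 members, 67 matched a RefSeq promoter entry. NRF1 letters were found in 8 of them (11.9%), against 5.99% of 7884 tested genes with an entry. ETS letters were found in 22 (32.8%, against 19.5%) and YY1 letters in 4 (5.97%, against 2.69%). None of the 3 was found in 38 members (56.7%), against 74.0% of tested genes. Over all 27025 genes with an entry, the shares were 2.92% for NRF1, 9.48% for ETS and 1.22% for YY1. A match is a run of letters and not a measured site. The motifs were chosen after sequences were seen, so these shares are a description and their differences were not tested.

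Many members also shared their promoter region with a neighbour on the other strand. A gene of opposite strand started within 1000 bases, head to head, beside 26 of the 67 (38.8%), against 20.8% of tested genes. Mrpl46 and Mrps11, whose starts are 42 bases apart, are such a pair of members. Mrps12 faces Sars2, a mitochondrial tRNA synthetase, and Mrpl47 faces Ndufb5, a subunit of respiratory complex I. Mrpl43 faces Twnk, the mitochondrial DNA helicase. The neighbour of Mrps18b is Ppp1r10, which read 4.57 and 4.10 RPKM in control, 5.86 and 4.53 at 7 days, and 6.12 and 6.24 at 28 days. Its changes were 0.23 at 7 days (limma adjusted p = 0.314) and 0.47 at 28 days (limma adjusted p = 0.119).

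Mrps34 had the largest change of the members at 7 days but did not pass. Variants of its human counterpart cause a respiratory chain disease. It read 21.8 and 22.8 RPKM in control, 34.1 and 32.3 at 7 days, and 31.4 and 50.1 at 28 days. Both controls were below every infused library, and the 28 day libraries were far apart. Its change at 7 days was 0.56 (SE 0.20, limma adjusted p = 0.1004). The same change passed when either 28 day library was left out, with a lowest limma adjusted p of 0.00949.

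Other members of the small subunit stood on both sides of 0 at 7 days. Mrps23 read 90.1 and 91.7 RPKM in control and 128 and 104 at 7 days, a change of 0.34 (limma adjusted p = 0.0992). Mrps7 and Mrps12, core proteins of the small subunit, had changes of 0.23 and 0.15 and 7 day libraries above both controls. Mrps28 had the lowest change, -0.30 (limma adjusted p = 0.144), with 65.1 and 62.8 RPKM in control and 58.0 and 46.3 at 7 days. Mrps31 was next, with 23.7 and 26.5 RPKM in control, 22.1 and 19.0 at 7 days and a change of -0.29. The changes of Mrps35 and Mrps24 were -0.27 and -0.26, and that of Mrps22 was -0.04. None of these passed.

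Large subunit proteins also spread around 0. Mrpl52 read 74.8 and 71.5 RPKM in control and 106 and 82.2 at 7 days, a change of 0.35 (limma adjusted p = 0.116). Mrpl44, which carries a fold of RNase III enzymes, read 29.1 and 28.9 RPKM in control and 36.1 and 32.6 at 7 days, a change of 0.24. The stalk genes Mrpl12, Mrpl11 and Mrpl10 had changes of 0.07, 0.11 and 0.13, and in each the 7 day libraries overlapped the controls. Mrpl3, a protein near the catalytic centre, had a change of 0.11. Mrpl39, a large subunit protein related to threonyl-tRNA synthetase, read 46.3 and 47.1 RPKM in control and 41.0 and 37.4 at 7 days, a change of -0.25 (limma adjusted p = 0.158). After rescaling by the median ratio, Mrpl39 and Mrps31 were called lower at 7 days, and by quantile normalization Mrps28 was called as well.

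In all, both 7 day libraries lay above both controls in 22 members and below them in 7, and overlapped them in 47. Among all tested genes, 48.6% lay above and 16.1% below. The 95% interval of the change stayed within 1.5-fold either way in 63 of 76 members (82.9%), against 51.6% of all tested genes, whose median level was lower. This share was 89.2% of oxidative phosphorylation genes, 100% of mitochondrial translation factors and 85.0% of mitochondrial tRNA synthetases. It was 80.0% of mitoribosome assembly factors and 57.0% of cytosolic ribosomal proteins. The members' interval stayed within 2-fold in 75, the exception being Mrps34. By class, the median change was 0.07 for both classes with bacterial relatives, 0.06 for large subunit proteins specific to mitochondria, and -0.04 for small subunit proteins specific to mitochondria.

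**Figure D3:**
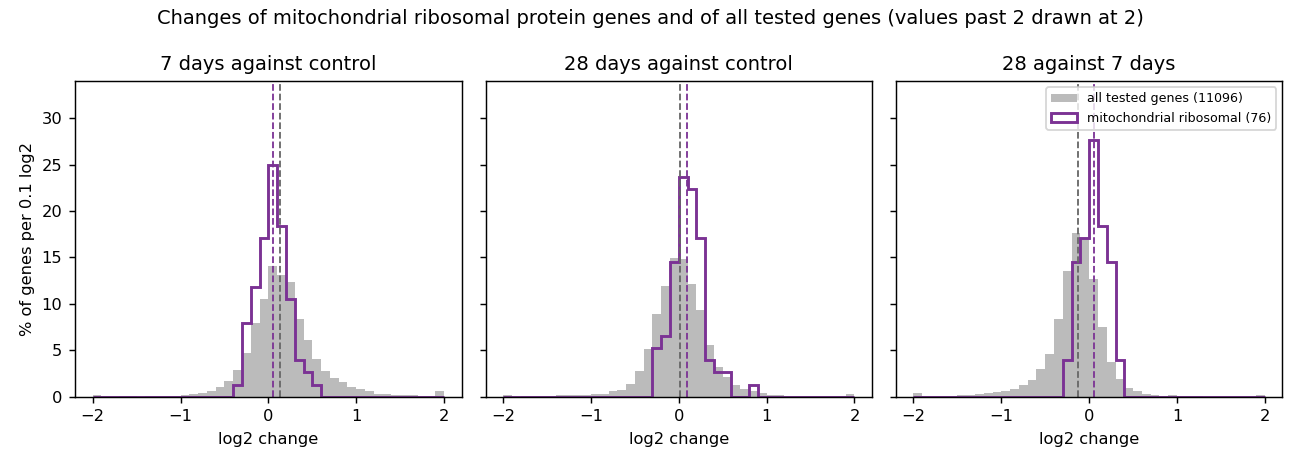
Distribution of log2 changes of the 76 members (outline) and of all 11096 tested genes (filled) in the 3 comparisons, as percent of genes per 0.1 log2, with dashed lines at the medians. The member medians are 0.06, 0.10 and 0.06, against 0.14, 0.01 and -0.12 for all tested genes; rescaling by the median ratio turned the first to -0.11.

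The small median at 7 days covered 2 libraries that disagreed. Replicate 1 was above replicate 2 in 74 of 76 members (97.4%), the exceptions being Mrpl17 and Mrpl22, against 52.3% of all tested genes. The median difference of replicate 1 from replicate 2 was 0.22 for the members and 0.01 for all tested genes. In control, replicate 1 was above replicate 2 in 22 of 76 members, and at 28 days in 32. Set against the control mean, the median member stood at 0.18 in the first 7 day library and at -0.07 in the other, while all tested genes stood at 0.15 and 0.13. After rescaling, the difference between the libraries had the same sign in 73 members by the median ratio and in 72 by quantile normalization. The median ratio divided the 2 libraries by 1.084 and 1.078, so it could hardly change their difference.

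The widest differences between the 7 day libraries were in Mrpl23 (19.9 and 13.7 RPKM), Mrps18c (36.9 and 25.8 RPKM) and Mrpl1 (12.3 and 8.70 RPKM). Other mitochondrial lists differed in the same direction, to different degrees. Replicate 1 was above replicate 2 in 74 of 74 tested oxidative phosphorylation genes, with a median difference of 0.28, in 14 of 15 mitochondrial translation factors (0.23) and in 20 of 25 assembly factors (0.17). It was above in 15 of 20 mitochondrial tRNA synthetases, with a median difference of 0.06, and in 11 of 16 genes of mitochondrial DNA expression, with 0.18. It was also above in 69 of 79 cytosolic ribosomal proteins, with a median difference of 0.17.

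Cell type markers differed between the same 2 libraries. Cardiomyocyte markers summed to 56333 RPKM in replicate 1 and 45792 in replicate 2, with 7 of 9 higher in replicate 1. Of the macrophage markers 0 of 8 were higher in replicate 1, and of the fibroblast markers 3 of 8. Endothelial markers summed to 222 and 262 RPKM, with 1 of 6 higher in replicate 1. Between the 28 day libraries, 8 of 8 macrophage and 0 of 6 endothelial markers were higher in replicate 1. So were 6 of 9 cardiomyocyte and 4 of 8 fibroblast markers, and 32 of 76 members. None of these markers was at 0 in any library, and their part in the members' difference was not tested. Without 7 day replicate 1 the members' median change at 7 days was -0.07, and without replicate 2 it was 0.18.

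**Figure D4:**
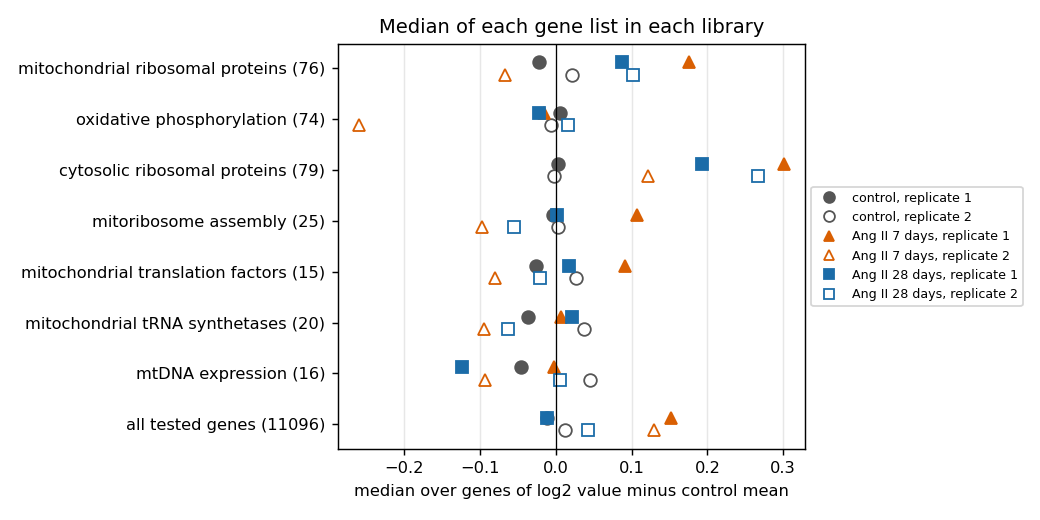
Median log2 level of each gene list in each library, relative to the mean of the 2 controls, with the number of tested genes in brackets; filled symbols are replicate 1 and open symbols replicate 2. The 7 day libraries (triangles) stand at 0.18 and -0.07 for the mitochondrial ribosomal proteins and at -0.02 and -0.26 for oxidative phosphorylation, while all tested genes stand at 0.15 and 0.13.

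After 28 days, Mrps18b was the single member that rose and none fell. Among all tested genes 2.87% were called higher and 1.54% lower, so 1 of 76 was near the background. In 56 of 76 members (73.7%) the change was above 0, against 51.7% of all tested genes. The median change was 0.10 in the members and 0.01 in all tested genes. By quantile normalization these medians were 0.010 and -0.01, and by the median ratio 0.08 and -0.00. Members' changes ran from -0.26 to 0.82. At an unadjusted p under 0.05, 11 members were higher and 1 lower, where the background was 12.8% and 9.32%.

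The 28 day change of Mrps18b was 0.54 (SE 0.10, limma adjusted p = 0.0377), from 16.2 ± 0.966 to 23.8 ± 0.0339 RPKM (SD, n = 2). It was no longer called when any 1 of the 6 libraries was left out, with limma adjusted p from 0.0575 to 0.303. The change of Mrps18a was 0.51 (SE 0.11, limma adjusted p = 0.0539). That of Mrps34 was 0.82 (SE 0.20, limma adjusted p = 0.0663), and 1 library set its size: it was 1.15 without 28 day replicate 1 (limma adjusted p = 0.00848) and 0.49 without replicate 2 (limma adjusted p = 0.0725). Mrps18c stood at -0.06 (limma adjusted p = 0.894).

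Below these came 2 large subunit proteins with bacterial counterparts. Mrpl21 read 14.01 and 15.8 RPKM in control and 18.8 and 22.2 at 28 days, a change of 0.45 (limma adjusted p = 0.106). It overlaps Ighmbp2 in the annotation, which stayed under 1 RPKM in every library. Mrpl34 read 35.0 and 41.2 RPKM in control and 54.8 and 48.6 at 28 days, a change of 0.44 (limma adjusted p = 0.168). In both genes the 28 day libraries were above both controls.

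The lowest change at 28 days was that of Mrpl39, with 46.3 and 47.1 RPKM in control and 36.4 and 41.7 at 28 days, a change of -0.26 (limma adjusted p = 0.217). Mrpl24, Mrps33 and Mrpl47 followed at -0.22, -0.22 and -0.21, then Mrps31 at -0.15. In each, both 28 day libraries were below both controls, and none passed. Among genes chosen for their roles, the stalk gene Mrpl12 read 172 and 164 RPKM in control and 193 and 184 at 28 days, a change of 0.16. Mrps7 and Mrps12 had changes of 0.25 and 0.21, Mrpl44 and Mrps22 of 0.10 and 0.11, and Mrpl3 of -0.13.

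Mrps36, of the oxoglutarate dehydrogenase complex, read 29.8 and 28.5 RPKM in control, 31.5 and 26.9 at 7 days, and 28.9 and 39.2 at 28 days. Its groups overlapped at both times, with changes of -0.00 and 0.20.

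Both 28 day libraries lay above both controls in 33 members and below them in 8, and overlapped them in 35, where 28.8% of all tested genes lay above and 25.8% below. The 95% interval stayed within 1.5-fold either way in 67 members (88.2%), against 59.7% of all tested genes. This share was 89.2% of oxidative phosphorylation genes, 80.0% of mitochondrial translation factors and 84.0% of assembly factors. It was 70.0% of mitochondrial tRNA synthetases and 46.8% of cytosolic ribosomal proteins. Class medians were 0.08 and 0.04 for the large subunit proteins with and without bacterial counterparts, and 0.10 and 0.11 for those of the small subunit. Leaving out control replicate 1, the library with low atrial markers, gave a median of 0.06 and no call.

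Between 7 and 28 days no member passed in limma, where 0.406% of all tested genes were called higher, 4.26% lower and 4.67% in either direction. Before adjustment, 2 members were higher with a p under 0.05 and 0 were lower, where the background was 3.0% and 19.1%. In 49 of 76 members (64.5%) the change was above 0, against 28.7% of all tested genes. The median change was 0.06 in the members and -0.12 in all tested genes. Rescaling turned the sign over all tested genes, to 0.02 by the median ratio and by quantile normalization, where the members stood at 0.21 and 0.13. Mrpl2, a protein at the catalytic centre, read 56.5 and 49.8 RPKM at 7 days and 63.6 and 68.1 at 28 days, a change of 0.31 (limma adjusted p = 0.16). Mrps27, an RNA-binding protein of the small subunit, read 24.4 and 20.5 RPKM at 7 days and 26.5 and 28.2 at 28 days, a change of 0.28 (limma adjusted p = 0.222).

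Mrps26, Mrps35 and Mrpl21 had changes of 0.30, 0.30 and 0.28. At the other end were Mrpl36 at -0.25, Mrpl3 at -0.24, Mrpl40 at -0.21, Mrpl28 at -0.18 and Mrpl24 at -0.16. Mrps18a and Mrps18b stood at 0.06 and 0.10 (limma adjusted p = 0.783 and 0.632). The later libraries lay above both 7 day libraries in 14 members (background 9.12%), below them in 11 (background 41.2%) and overlapped them in 51. Without 7 day replicate 2 the median was -0.06, and without replicate 1 it was 0.17.

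Genes that work with the mitochondrial ribosome were measured alongside. For all lists below, the background at an unadjusted p under 0.05 was 26.5% higher and 5.66% lower at 7 days. At 28 days it was 12.8% and 9.32%. Of 7 subunits that carry other names, none passed at 7 or 28 days in limma, with 0 and 1 at an unadjusted p under 0.05, and their medians were 0.03 and 0.06. Dap3, a GTP-binding small subunit protein, read 15.9 and 17.2 RPKM in control and 16.4 and 13.8 at 7 days, a change of -0.13. Ptcd3, an RNA-binding small subunit protein, had a change of -0.22 at 7 days. Gadd45gip1, of the large subunit, stood at 0.38 at 28 days (limma adjusted p = 0.151).

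The 25 assembly factors, which process and fold the ribosomal RNA, had no calls in limma at either time, and medians of 0.01 and -0.04. Before adjustment, 1 was higher at 7 days and 2 were lower at 28 days at a p under 0.05. The 15 translation factors had no calls, and medians of -0.02 and -0.01; before adjustment, 0 were under 0.05 at 7 days and 2, both lower, at 28 days. Tufm, the elongation factor that delivers aminoacyl-tRNA, had changes of 0.22 and 0.27. The 20 mitochondrial tRNA synthetases had no calls, and medians of -0.02 and 0.02. At an unadjusted p under 0.05 there was 1 lower at 7 days, and 1 in each direction at 28 days. After rescaling by the median ratio, the 7 day medians of these lists, in this order, were -0.15, -0.18 and -0.17, with 1 synthetase called lower. By quantile normalization they were -0.18, -0.16 and -0.20, with 1 translation factor and 1 synthetase called lower. Neither rescaling gave a call at 28 days.

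Of 16 genes for replication and expression of mitochondrial DNA, 1 fell at both times, where the background was 2.27% at 7 days and 1.54% at 28 days. None rose, where the background was 13.2% and 2.87%. The gene that fell was Polg2, the accessory subunit of the mitochondrial DNA polymerase. It read 2.98 and 2.77 RPKM in control, 1.78 and 1.49 at 7 days, and 1.40 and 1.47 at 28 days. Every infused library was below both controls. Its changes were -0.66 (SE 0.15, limma adjusted p = 0.0262) and -0.80 (SE 0.15, limma adjusted p = 0.032), and the calls were lost when any 1 library of the groups compared was left out. Tfam, which packages mitochondrial DNA, had changes of 0.00 and -0.01.

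Among 10 nuclear regulators of mitochondrial genes, 2 rose and 1 fell at 7 days, where the background was 13.2% and 2.27%. With 10 genes, these counts cannot be told from the background. None passed at 28 days, where 2 were higher and 0 lower before adjustment (background 12.8% and 9.32%). Myc read 0.874 and 1.12 RPKM in control and 3.23 and 2.62 at 7 days, a change of 1.19 (SE 0.19, limma adjusted p = 0.00929). Pprc1, a coactivator of the PGC-1 family, read 2.08 and 2.15 RPKM in control and 3.44 and 3.85 at 7 days, a change of 0.66 (SE 0.13, limma adjusted p = 0.0162). Ppargc1a, the PGC-1 alpha coactivator, went the other way. It read 18.1 and 18.9 RPKM in control and 13.3 and 11.3 at 7 days, a change of -0.57 (SE 0.15, limma adjusted p = 0.0413). Each call was lost without control replicate 1. Those of Myc and Ppargc1a were also lost without either 7 day library, that of Pprc1 without 7 day replicate 2, and those of Pprc1 and Ppargc1a without control replicate 2. Nrf1, Gabpa and Esrra, whose products bind such promoters, had changes of 0.32, -0.19 and 0.01 at 7 days, and none passed.

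The 74 oxidative phosphorylation genes had 1 call, lower, at 7 days and none at 28 days in limma. With a p under 0.05 before adjustment, 0 were higher and 5 lower at 7 days, and 7 higher and 2 lower at 28 days. At 7 days 32 of 74 lay below both controls and 5 above, where the background was 16.1% and 48.6%. Their medians were -0.13 and -0.00. After rescaling by the median ratio, 2 were lower at 7 days and 0 at 28 days, with medians of -0.30 and -0.02. By quantile normalization 5 and 1 were lower, with medians of -0.24 and -0.16. The call on the values as deposited was Ndufs1, of complex I, at 290 and 296 RPKM in control and 224 and 204 at 7 days. Its change was -0.45 (SE 0.12, limma adjusted p = 0.049), and the call was lost when any 1 control or 7 day library was left out. The 79 cytosolic ribosomal proteins had 6 genes that rose and 2 that fell at 7 days, and 5 that rose at 28 days, where the background was 13.2% and 2.27%, and then 2.87%. Their medians were 0.21 and 0.23. With a p under 0.05 before adjustment, 22 were higher and 2 lower at 7 days, and 30 and 1 at 28 days. After rescaling by the median ratio or by quantile normalization, 0 of the 6 passed at 7 days, while both that fell still did, and the 7 day median was 0.05 and 0.07. At 28 days 6 rose by the median ratio and 1 by quantile normalization. Rpl14 read 24.6 and 26.4 RPKM in control and 44.2 and 37.9 at 7 days, a change of 0.67 (SE 0.15, limma adjusted p = 0.0303). Rpl3l, the muscle-specific relative of Rpl3, read 154 and 151 RPKM in control and 113 and 95.4 at 7 days, a change of -0.56 (SE 0.13, limma adjusted p = 0.0285). The Rpl14 call was lost without any 1 control or 7 day library, and the Rpl3l call without either control or without 7 day replicate 2. These lists share their control libraries with the members, and no difference between lists was tested. Between 7 and 28 days no gene of these lists passed in limma on the values as deposited. After rescaling by the median ratio, 1 oxidative phosphorylation gene was called higher.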

How the data were processed

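The authors deposited RPKM values for each gene and library, named so per the file headers. Per the submitters' processing notes, TopHat2 2.0.12, Bowtie 0.12.9, HTSeq and DESeq2 were used with builds mm8 and mm9, with no role given. Which tool gave the RPKM is not given in the sources used here. All members and lists were chosen with earlier results of these data known.

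RPKM were log2 transformed after adding 0.5, which understates changes of low genes, and genes with a mean of at least 1 RPKM were kept (11096 of 22556; 4971 were at 0 throughout). All 6 libraries were fitted in limma 3.58.1 under R 4.3.3, with group means, empirical Bayes variances and a mean-variance trend (3 residual and 4.21 prior degrees of freedom). The fit was run on simulated data with independent noise drawn from its own variances. That simulation held no shift shared by many genes of a library. Intervals are 95% intervals from this fit. Absolute depth is unknown; relative depth came from the steps between low values.

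Members named are those that passed, the 5 highest and 5 lowest changes in each comparison, the 5 highest and 5 lowest levels, and genes with set roles; Mrps5, the promoter neighbours, and the genes named for differing between the 7 day libraries were picked after their values were seen. From other lists, passing genes with the largest changes (up to 4) and set genes could be named. Promoter motifs were chosen after sequences were seen. Coordinates and overlaps come from GRCm38, not from the authors' builds. Pseudogenes are named after Mrpl23, Mrpl27, Mrpl48 and Mrps36 in the annotation, so their reads may be split. Alternatives were another pseudocount, filter, scaling, variance model, replicate block, groups fitted, member list, and leaving out each library.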

Additional observations from a re-analysis of the deposited data

How the results depend on the processing

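Counts of called members were small and changed with most settings. At 7 days (2 called, both higher), 1 was called with no filter on low values, 1 with no variance trend, and 1 with the replicate number as a block. Median ratio scaling called 2 members lower, Mrpl39 and Mrps31, and quantile normalization 3 lower, adding Mrps28; neither called Mrps18a or Mrps18b. These scalings moved the member median from 0.06 to -0.11 and -0.12. Leaving out 1 library gave 0 to 3 calls (0 without any control or 7 day library, 3 without either 28 day library, Mrps34 included) and medians of -0.067 to 0.18.

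At 28 days (1 called), no filter, no variance trend, the replicate block, and fitting only the 2 groups compared each gave 0; a minimum mean of 5 RPKM and median ratio scaling each gave 2. Quantile normalization gave a median of 0.010. Leaving out 1 library gave 0 to 2 calls (2, Mrps18a and Mrps34, without 28 day replicate 1) and medians of 0.061 to 0.10. Between 7 and 28 days the count was 0 in all settings run; the median was 0.21 under median ratio scaling and -0.06 to 0.17 with 1 library left out. Other pseudocounts, and counting the subunits of other names or leaving out Mrps36, kept each count within 1.5 times.

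Over all tested genes at 7 days, median ratio scaling called 710 higher and 450 lower, against 1461 and 252. The higher share of calls between 7 and 28 days went from 8.69% to 22.8%. The replicate numbers were not treated as pairs: replicate differences correlated at 0.149 between control and 7 days, -0.0193 between control and 28 days, and -0.0139 between 7 and 28 days. Of 1797 values of single named members under the alternatives, 25 were no longer past the threshold, 12 newly passed, and 118 changed sign without passing. With 2 libraries a group and a median SE of 0.12, changes of the members' usual size could not be told from the spread.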
